A study of Canis lupus familiaris with 10 samples.

Results

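Chromosome 9 of the dog carried 2347 of the 59420 stretches of accessible chromatin found in a pair of canine B-cell lymphoma lines, which is 3.95% of them. The members were chosen by a measured value, the presence of a called peak in any of 10 libraries: peaks of all libraries that touched or overlapped were merged into regions, and every merged region on chromosome 9 was kept. Presence of a peak in a region is therefore described here and not tested. The rule pooled all libraries and used neither line nor treatment, and the tests of peak numbers below compare libraries on how many peaks they have on the chromosome or in a window of it. Accessibility was measured by ATAC-seq, in which a transposase cuts and tags DNA that is free of nucleosomes, so that a pile of sequenced fragments, called as a peak, marks open chromatin. Cells of the line 17-71 were collected on day 4 and cells of the line CLBL-1 on day 2, each as control cultures or after 100 nM PR220, an inhibitor of the arginine methyltransferase PRMT5 that the study calls C220. The 17-71 controls are the 3 libraries B1 to B3, and its PR220 libraries are B4 and B6 (2 libraries). The CLBL-1 controls are C2 and C3 (2 libraries), and its PR220 libraries are C4 to C6 (3 libraries). The labels give lymph node as the source of both. Each is 1 cell line and each was collected on its own day, so line and collection day cannot be told apart. The study describes its experiments as biological triplicates and left outlier libraries out without naming them, and the p-values below measure only the spread between the libraries at hand.

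Open regions lie mostly at the start sites of genes and at enhancers, and their pattern differs between cell types and between tumours. PRMT5 places symmetric methyl groups on arginines of histones, where some are linked to repressed genes and another to gene expression. It also places them on Sm proteins, which bind the small nuclear RNAs of the spliceosome. Several small nuclear RNA genes lie on dog chromosome 9 in tandem copies, and they are described with the annotated regions below.

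The peak lists give each peak's position and width and a fold enrichment, which is the fragment pileup over a local background made by the authors' caller and averaged over the peak. The fold is not scaled between libraries, and the lists carry no read totals, so the depth behind a missing peak is unknown and a site without a peak can still be open. The weakest peak on the chromosome had a −log10 p of 5.00, at the caller's threshold of 5, and sites below that threshold were not analysed here. In 966 of the 2347 regions no peak of any library reached a −log10 p of 10.

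The regions of chromosome 9 ran from base 675 to base 61066108 of CanFam3.1 and covered 3.02 Mb, or 4.94% of that stretch. Their widths ranged from 282 to 6895 bp with a median of 1108 bp, against 1078 bp over all chromosomes, and 78 were at least 3 kb wide. The median distance to the next region was 11.7 kb, and the largest stretch with no region ran over 744.41 kb, from chr9:27819470-28563879. The median width was 526.5 bp for the 426 regions seen in 1 library and 1678.5 bp for the 434 seen in all 10, and it rose at each step between them except from 1456 bp in 7 libraries to 1402 bp in 8. The widest region, chr9:42753899-42760793, had a peak in every library at a fold between 2.73 and 3.56, and its peaks added up to between 2259 bp in B2 and 5277 bp in C4.

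CLBL-1 held a larger share of its peaks on chromosome 9 than 17-71. Of the peaks of B1, 3.97% lay there, of B2 3.42% and of B3 3.84%, and of the treated libraries B4 3.64% and B6 3.58%. In CLBL-1 it was 4.77% in C2, 4.61% in C3, 4.98% in C4, 5.07% in C5 and 5.12% in C6. Every CLBL-1 library lay above every 17-71 library, with means of 4.91% ± 0.213 and 3.69% ± 0.217 (SD, n = 5 each), a ratio of 1.33. Among the 39 chromosomes this ratio ranked 4th. The chromosome held the 2nd largest share of peaks in CLBL-1 and the 7th largest in 17-71. The chromosome was chosen with this difference already known, so it is a description of these libraries and carries no test.

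**Figure D1:**
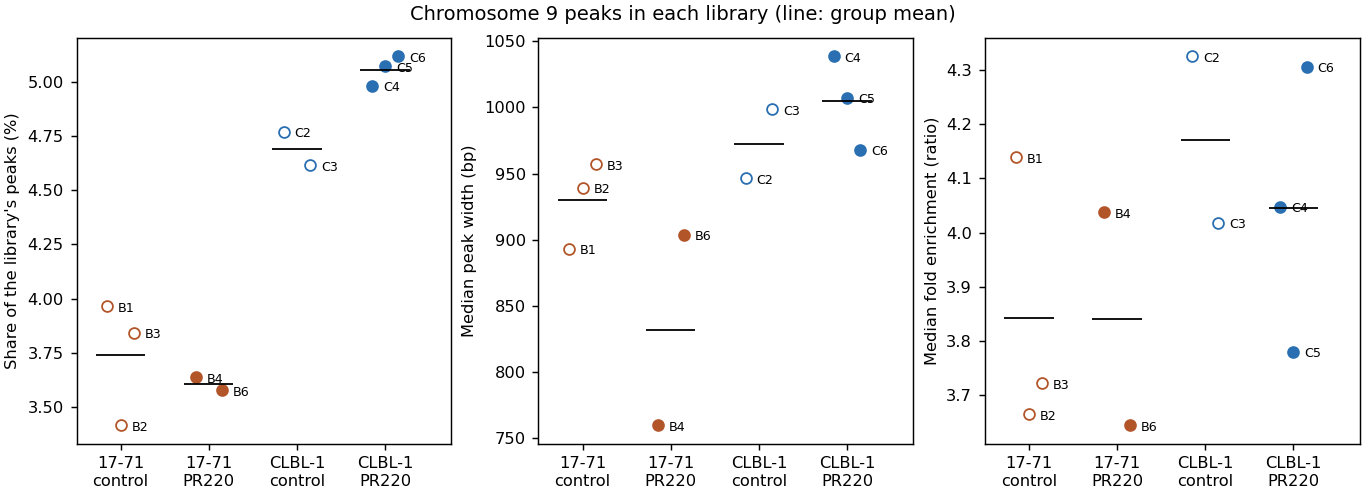
Each point is a library, with open points for control and filled points for PR220 libraries and a line at each group mean; the panels show the share of the library's peaks that lie on chromosome 9 (percent), their median width (bp) and their median fold enrichment (ratio). The 5 CLBL-1 libraries sit between 4.61% and 5.12%, all above the 17-71 libraries, and the unscaled fold of the lines overlaps.

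Within CLBL-1 the control libraries had a share of 4.69% ± 0.109 (SD, n = 2) and those given PR220 one of 5.06% ± 0.0694 (SD, n = 3). All 3 PR220 libraries lay above both controls. An exact two-sided permutation test gave p = 0.1, the smallest p that 3 against 2 libraries allow (0.32 after Benjamini-Hochberg adjustment over 8 tests), so the design could not pass a threshold of 0.05. Within 17-71 the control libraries had a share of 3.74% ± 0.288 (SD, n = 3) and those given PR220 one of 3.61% ± 0.0425 (SD, n = 2), and the groups overlapped (exact permutation p = 0.6).

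The number of peaks on the chromosome was lower with PR220 in 17-71 and higher with PR220 in CLBL-1. In 17-71 there were 1760, 1140 and 1189 peaks in the controls and 803 and 989 in the PR220 libraries, a difference of means of -467 (exact permutation p = 0.2). In CLBL-1 there were 1136 and 1076 peaks in the controls and 1346, 1382 and 1181 with PR220, a difference of 197 (exact permutation p = 0.2). The treated and control values did not overlap in either line. The mean length of the whole list moved in the same directions. It went from 36226 peaks in control to 24861 in PR220 libraries of 17-71, and from 23570 to 25785 in CLBL-1. In CLBL-1 the lengths of the whole lists overlapped, since C6 had 23082 peaks, against 23822 in C2 and 23318 in C3. The part of list length in the difference was not tested beyond the share given above.

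Peak width and fold on the chromosome did not pass in either line. The median width in 17-71 was 893, 939.5 and 957 bp in the controls and 760 and 904 bp with PR220, and in CLBL-1 it was 946.5 and 998.5 bp in the controls and 1038.5, 1007.5 and 968 bp with PR220. The exact permutation p was 0.2 in 17-71 and 0.4 in CLBL-1, and in both lines the groups overlapped. B4 stood apart with the narrowest peaks, also over all chromosomes, where its median was 714 bp. Relative to the median of the whole library, the median fold on chromosome 9 in 17-71 was 1.04 ± 0.0146 (SD, n = 3) for the controls and 1.01 ± 0.000892 (SD, n = 2) for PR220 libraries, and the groups did not overlap (exact permutation p = 0.2). It was 0.989 ± 0.0055 (SD, n = 2) and 0.983 ± 0.0088 (SD, n = 3) in CLBL-1, where they did (exact permutation p = 0.5). On this relative scale the lines did not overlap, at 1.01 to 1.05 in 17-71 and 0.975 to 0.993 in CLBL-1.

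Peaks were spread unevenly along the chromosome. In 62 windows of 1 Mb, numbered by their distance from the chromosome's first base, the number of regions ranged from 2 to 79 with a median of 34.5. The windows with the most regions were 23 to 24 Mb and 55 to 56 Mb, with 79 each, 22 to 23 Mb with 76, and 4 to 5 Mb and 20 to 21 Mb with 69 each. The sparsest were 28 to 29 Mb with 2 regions, the last window with 4, and 29 to 30 Mb with 5, in which no CLBL-1 library had a peak. The windows 8 to 9 Mb, 16 to 17 Mb and 17 to 18 Mb had 11 each. The profile was shared by the lines: Spearman's rho over the 62 windows was 0.857 between the control means of the lines, 0.966 between control and PR220 in 17-71 and 0.988 in CLBL-1. These are descriptions over windows of the same genome, whose gene density and base composition the libraries share.

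The share of peaks was higher in CLBL-1 over most of the chromosome and higher in 17-71 in a few windows of its middle. Peaks per 1000 peaks of the library were compared on the log2 scale, with 0.5 peaks added, by limma over 2083 windows of the genome, of which 60 lie on chromosome 9. With a Benjamini-Hochberg adjusted p below 0.05 in limma, 40 windows of chromosome 9 (66.7%) were higher in CLBL-1, where 32.5% of the windows of the genome were. Higher in 17-71 were 6 windows (10.0%), where 36.1% of the windows of the genome were. The median difference, 17-71 minus CLBL-1, was -0.35 on the chromosome and 0.02 over all windows. Since the chromosome was chosen with its share known, these counts give no independent support for the line difference. When each window was instead scaled to the chromosome's own peaks, a scaling chosen after seeing the data, 17 windows were higher in 17-71 (28.3%, against 35.3% of the windows of the genome) and 16 higher in CLBL-1 (26.7%, against 31.0%), both shares below the background.

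The longest run of neighbouring windows higher in CLBL-1 held 11 windows, from 42 to 53 Mb, and others ran from 0 to 5 Mb and from 20 to 25 Mb. The windows higher in 17-71 were 27 to 28, 30 to 32, 35 to 37 and 39 to 40 Mb. The window that follows, from 40 to 41 Mb, was higher in CLBL-1.

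The window from 39 to 40 Mb differed most in favour of 17-71. It held 21, 15 and 17 peaks in the 17-71 controls and 11 and 16 in the PR220 libraries, but 2 and 3 peaks in the CLBL-1 controls and 3 in each CLBL-1 PR220 library, and all values of the lines were apart. The log2 difference was 2.02 ± 0.144 (SE), and 9 of its 22 regions had a peak in all 5 libraries of 17-71 and in none of CLBL-1. The window from 30 to 31 Mb followed with 1.19 ± 0.10 (SE) and also held 9 such regions, of 26, and 35 to 36 Mb had a difference of 0.91 ± 0.135 (SE), which became 0.25 and did not pass at a −log10 p of at least 10 (limma adjusted p = 0.294). In favour of CLBL-1 the window from 50 to 51 Mb led with -1.74 ± 0.223 (SE). It held 11, 3 and 5 peaks in the 17-71 controls and 5 and 3 with PR220, against 13 and 10 in the CLBL-1 controls and 18, 18 and 14 with PR220. Windows 59 to 60 Mb and 49 to 50 Mb came next, with -1.37 ± 0.099 and -1.31 ± 0.119 (SE).

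**Figure D2:**
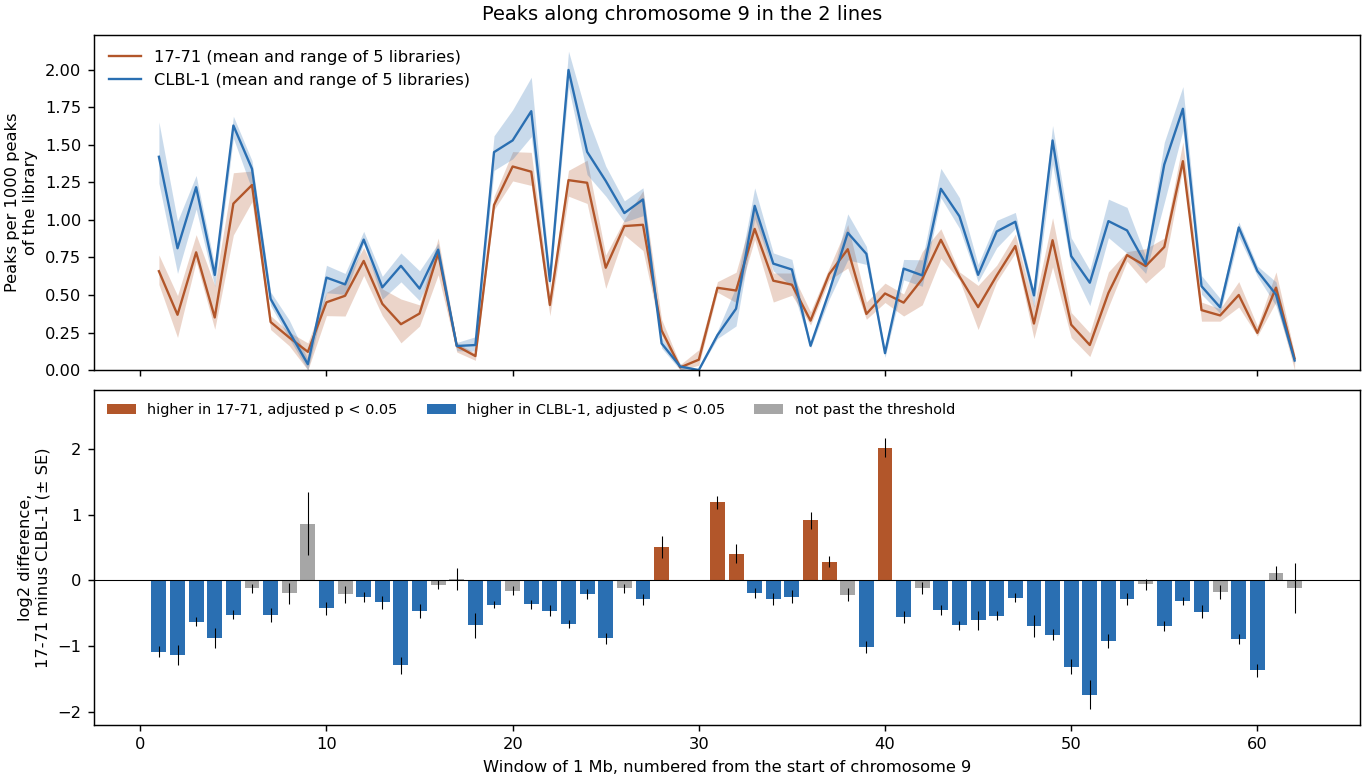
The upper panel gives peaks per 1000 peaks of the library in each 1 Mb window of chromosome 9, as the mean (line) and range (band) of the 5 libraries of each line; the lower panel gives the log2 difference, 17-71 minus CLBL-1, with its SE, for the 60 windows tested, coloured by the limma call. The lines follow 1 profile, 51 bars point to CLBL-1, of which 40 were called, and the tallest bar, 2.02 at window 40, points to 17-71.

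Few windows passed with PR220. In 17-71 no window of chromosome 9 rose (0.384% of the windows of the genome did) and 2 of 60 fell (1.15% did), by limma with Benjamini-Hochberg adjustment. The window from 13 to 14 Mb held 21, 10 and 11 peaks in the controls and 4 and 6 with PR220, a fall of the log2 value with a difference of -0.81 ± 0.174 (SE, adjusted p = 0.0338). The window from 41 to 42 Mb held 35, 20 and 22 peaks in the controls and 11 and 12 with PR220, with a difference of -0.55 ± 0.130 (SE, adjusted p = 0.0485). In both windows the groups were apart in peaks per 1000. At a −log10 p of at least 10, 2 windows of 57 rose (3.51%, against 5.98% over the genome) and 7 fell (12.3%, against 6.74%). In the lists as deposited neither call held without B4, without B1 or without B3, where the differences were -0.71, -0.64 and -0.83 for the first window and -0.65, -0.46 and -0.53 for the second, and the call of the second was lost in 12 of 15 alternatives. In CLBL-1 no window passed in either direction (0.144% of the windows of the genome rose and 0.048% fell), the smallest adjusted p in limma was 0.726, and 3 of the 60 had an unadjusted p below 0.05, where 6.48% of the windows of the genome had one. The interaction of line and treatment passed in 0 windows of chromosome 9 by limma, and in 0 of the 2083 over the genome. An unadjusted p below 0.05 was found in 9 of 60, where 14.8% of the windows of the genome had one.

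Each of the 2347 regions was also sorted by the libraries that had a peak there. A peak in all 10 libraries was found in 434 regions (18.5%, against 15.4% of regions of the genome). A peak in all 5 libraries of CLBL-1 and in none of 17-71 was found in 191 regions (8.14%, against 6.76%), and the reverse in 180 (7.67%, against 10.9%). At a −log10 p of at least 10 the CLBL-1 pattern was no longer above the genome, with 103 regions (7.45%, against 7.56%). Peaks of both lines lay in 1031 regions (43.9%, against 36.6% over the genome), of 17-71 alone in 778 (33.1%, against 45.4%) and of CLBL-1 alone in 538 (22.9%, against 18.0%). Of the 426 regions seen in a single library, 229 were seen in B1, the library with the longest list.

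Within each pattern, regions were ordered by the −log10 p of their weakest peak, which grows with width and depth as well as with fold, so the order is not one of fold. First among the regions common to all libraries was chr9:22846063-22846521, a stretch of 459 bp. Its fold was 15.2, 13.3 and 12.7 in the 17-71 controls, 16.2 and 14.2 with PR220, 16.1 and 14.00 in the CLBL-1 controls and 15.7, 15.6 and 15.1 with PR220, and the 4 groups overlapped. The region chr9:6612379-6612902 followed, with a fold between 10.3 in B3 and 13.5 in B4. Regions chr9:18455732-18456942, chr9:35844425-35845670 and chr9:42397742-42399053 came next in this order, with folds between 5.83 and 10.1.

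Of the regions with a peak in every library of 17-71 and none of CLBL-1, chr9:40674033-40675462 came first, with a fold of 6.49, 5.54 and 5.21 in control and 5.60 and 4.85 in PR220 libraries. The next were chr9:30589218-30590605 at 4.90 to 6.37 and chr9:6930145-6931575 at 4.12 to 5.71. Of the regions with a peak in every library of CLBL-1 and none of 17-71, the 3 first in this order were chr9:2111980-2113929, at a fold of 4.89 to 5.73, and a pair that holds U1 small nuclear RNA genes, described below.

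Regions present in every control and absent from every PR220 library of a line are called lost here, and the reverse gained. In 17-71, 126 regions were lost (5.37%, against 5.69% over the genome) and 3 were gained (0.128%, against 0.173%). In CLBL-1, 3 were lost (0.128%, against 0.273%) and 49 were gained (2.09%, against 0.936%). Chromosome 9 held 8.81% of all regions gained in CLBL-1. The counts moved with list length and with single libraries: the 126 lost in 17-71 became 32 (1.91%, against 1.74% over the genome) when every library was reduced to its 20000 peaks of largest −log10 p and 298 (12.7%, against 13.96%) without B6. The 49 gained in CLBL-1 became 27 (1.61%, against 0.665%) in lists of equal length and 130 (5.57%, against 2.63%) without C6.

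The 49 regions gained in CLBL-1 were scattered over 34 windows, with at most 5 in any, from 54 to 55 Mb. Of these, 26 had no peak in any 17-71 library, 21 had a peak in 1 to 4, and 2 in all 5. Over the genome, 44.8% of the regions gained in CLBL-1 had no peak in 17-71 and 10.6% had one in all 5, and here the shares were 53.1% and 4.08%. First by the −log10 p of its weakest peak was chr9:497528-498470, at a fold of 6.72, 5.20 and 4.41 in C4, C5 and C6. It also had a peak in B1 and B3. The next was chr9:57501181-57502820, at 4.71, 3.79 and 5.12, and then chr9:48440478-48440925, at 3.13, 2.71 and 3.17, which had no peak in 17-71. The 3 lost in CLBL-1 were chr9:44776592-44778684, chr9:22833441-22834760 and chr9:46051864-46052522, and the first of them was also lost in 17-71.

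The 126 regions lost in 17-71 lay in 48 windows, with at most 7 in any, from 48 to 49 Mb. In CLBL-1, 60 of them (47.6%) had no peak in any library and 41 (32.5%) had one in all 5, against 57.4% and 21.5% of the regions lost in 17-71 over the genome. First in the same order was chr9:2843113-2844498, at a fold of 3.91, 3.99 and 3.87 in B1, B2 and B3, followed by chr9:53482943-53483810 at 3.26 to 3.58. The next, chr9:21095778-21096809, at 2.29 to 2.50, lies downstream of EIF1, a factor in the choice of the start codon. The 3 gained in 17-71 were chr9:31591702-31592616, chr9:31323398-31324165 and chr9:4394660-4396290, with folds of 2.86 to 3.40 in B4 and B6.

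**Figure D3:**
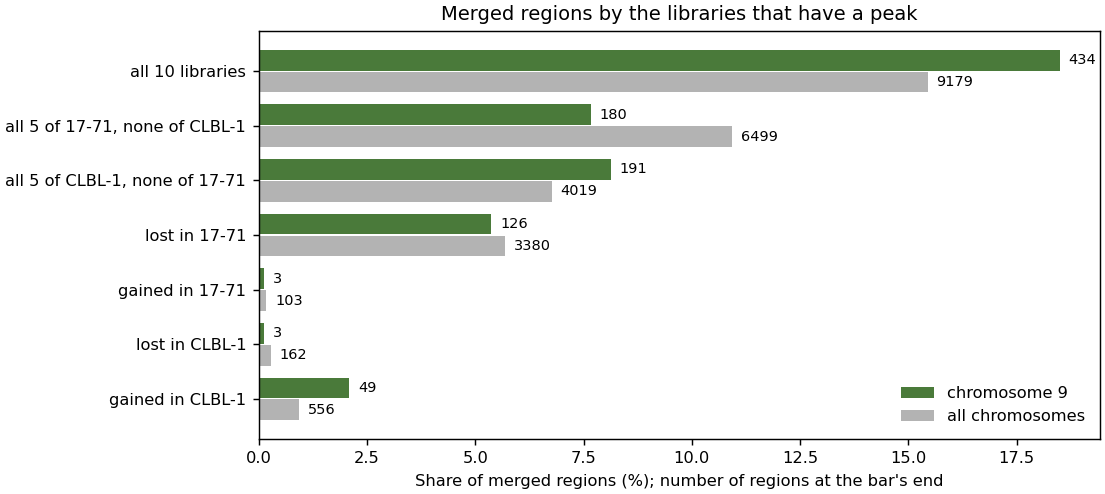
Bars give the percent of merged regions with each pattern of presence, for the 2347 regions of chromosome 9 (green) and the 59420 of all chromosomes (grey), with the number of regions at the end of each bar. Regions in all 10 libraries, in CLBL-1 alone and gained in CLBL-1 take a larger percent on chromosome 9, and regions in 17-71 alone a smaller one. The larger percent in CLBL-1 alone was not seen at a −log10 p of at least 10.

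The fold was compared by limma on log2 values, centred on each library's median, in the 434 regions with a peak in all 10 libraries, fitted together with the 9179 such regions of the genome. A region passed this filter only if it was called in every library, so sites open in 1 line alone are not among them. Between the lines, 90 regions were higher in 17-71 (20.7%, against 21.3% of the 9179) and 100 higher in CLBL-1 (23.0%, against 19.1%), at an adjusted p below 0.05 in limma with Benjamini-Hochberg adjustment. The median difference was -0.03 on the chromosome and 0.00 over the genome. Without centring, the median over all regions moved to -0.16 and the counts became 35 (8.06%, against 7.02% of the 9179) and 159 (36.6%, against 31.6%), so directions are given relative to the library median.

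The region chr9:19869933-19871782, which lies between annotated U2 small nuclear RNA copies described below, differed most. The placement of read pairs from such copies is uncertain, and its part in the values of this region was not tested. Its fold was 5.63, 5.21 and 4.99 in the 17-71 controls, 4.79 and 4.61 with PR220, 2.39 and 2.19 in the CLBL-1 controls and 2.11, 2.33 and 1.99 with PR220. The lowest value of 17-71 was above the highest of CLBL-1, and the log2 difference was 1.34 ± 0.0752 (SE, limma adjusted p = 1.36e-07). Its peaks were 1339 to 1696 bp wide in 17-71 and 653 to 756 bp in CLBL-1. The region chr9:11683275-11684636 was higher in 17-71 by 1.23 ± 0.0781 (SE, limma adjusted p = 4.01e-07), with folds of 5.47 to 5.93 against 2.43 to 2.92 and widths of 1053 to 1362 bp against 756 to 1011 bp. Also higher in 17-71 were chr9:48604502-48608210, by 0.81, and chr9:2985316-2986902, by 0.68. The peaks of the first of these were 837 to 1373 bp wide in 17-71 and 3424 to 3665 bp in CLBL-1, and those of the second 1077 to 1333 bp and 992 to 1320 bp. Since the fold is averaged over the peak, width can move it, and its part in these differences was not tested. Higher in CLBL-1 was chr9:11806867-11808709, with a fold of 6.94 to 8.59 against 3.68 to 4.90 and a log2 difference of -0.74 ± 0.0656 (SE, limma adjusted p = 3.2e-06). Its peaks were the narrower ones in CLBL-1, at 709 to 917 bp against 1298 to 1723 bp. Over the 434 regions, the line difference in log2 width and that in log2 fold had a Spearman's rho of -0.156, given as a description since both come from the same peaks.

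**Figure D4:**
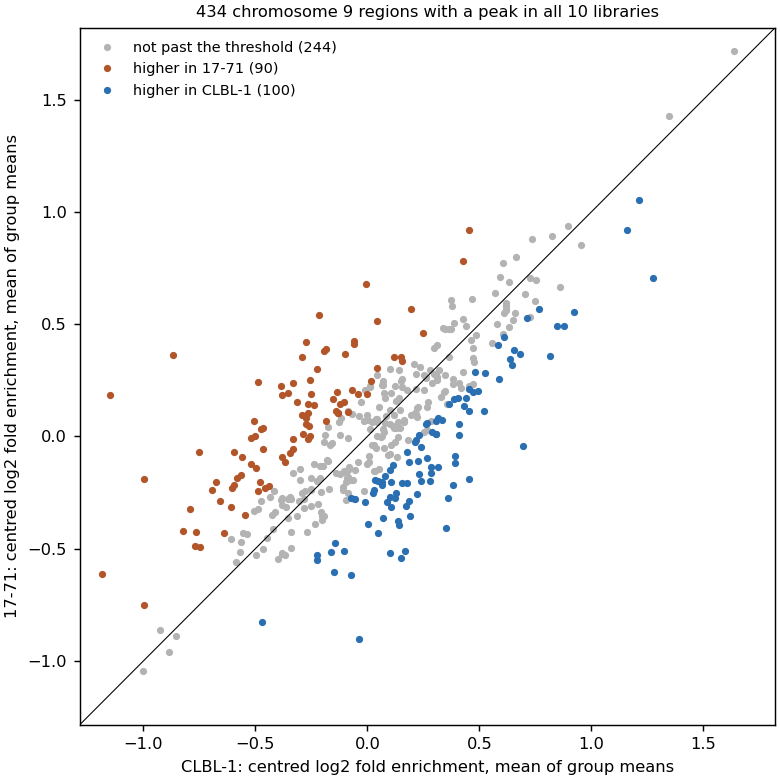
Each point is 1 of the 434 chromosome 9 regions with a peak in all 10 libraries, by its centred log2 fold enrichment in CLBL-1 (horizontal) and 17-71 (vertical), each the mean of the control and PR220 group means; the line marks equal values. The 90 regions called higher in 17-71 lie above it and the 100 called higher in CLBL-1 below it.

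With PR220, 1 region of 434 rose in 17-71 (0.479% of the 9179 did) and none fell (0.163% did). It was chr9:34607756-34612040, with a fold of 2.72, 2.52 and 2.63 in the controls and 4.09 and 3.53 with PR220, and a log2 difference of 0.60 ± 0.096 (SE, limma adjusted p = 0.0171). The call was lost without B4, without B3 and without centring. Without B6, where B4 is the only PR220 library of 17-71 left and is assumed to vary like the other groups, 23 regions rose (5.30%, against 5.07% of the 9179) and 10 fell (2.30%, against 2.18%). The peak was 4285, 4144 and 4155 bp wide in the controls, 752 bp in B4 and 4147 bp in B6. The part of width in the fold was not tested here. In CLBL-1 no region passed in limma in either direction (0% of the 9179 rose and 0% fell), while 21 of the 434 had an unadjusted p below 0.05, where 3.99% of the 9179 had one. The 3 of smallest p were chr9:51315869-51317145, chr9:49025738-49028405 and chr9:11090045-11091794. Their log2 differences were -0.38, -0.62 and -0.38 and their adjusted p in limma 0.815, 0.887 and 0.898. The interaction passed in 0 of the 434 regions by limma, and in 4 of the 9179 over the genome. An unadjusted p below 0.05 was found in 60 of the 434, where 12.0% of the 9179 had one.

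The study's own annotation of regions with genes of CanFam3.1 was at hand for 42 of the 2347 regions, which it pairs with 41 genes. Those regions were picked by the study's own comparisons of these libraries, so they are not a sample of the chromosome and the other regions may lie at genes too. Of a list of 41 genes known for work in B cells, cell growth or RNA, 5 were among them: MAP3K14, CCR7, MIR21, ALYREF and EIF4A3. Other genes below were chosen after their values were seen.

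CCR7 encodes the chemokine receptor that guides lymphocytes into lymph nodes. The region over its start, chr9:22067762-22069334, had a peak in every library, at a fold of 4.65, 4.93 and 4.82 in the 17-71 controls, 4.34 and 4.18 with PR220, 4.50 and 3.89 in the CLBL-1 controls and 4.19, 3.68 and 4.19 with PR220. It was higher in 17-71 by 0.31 ± 0.0829 (log2, SE, limma adjusted p = 0.0092), though the lines overlapped before centring and the call was lost without centring, where the difference was 0.14. The fold was lower in both PR220 libraries of 17-71 than in the controls, but the difference of -0.11 did not pass (limma adjusted p = 0.647).

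MIR21, the gene of a microRNA that is often abundant in lymphoma, had a region on each side. The upstream one, chr9:34335876-34338016, had a fold of 3.56, 3.34 and 3.12 in the 17-71 controls, 5.52 and 3.38 with PR220, and 5.64, 5.67, 5.24, 5.07 and 6.07 in CLBL-1 from C2 to C6. It was higher in CLBL-1, with a log2 difference of -0.38 ± 0.102 (SE, limma adjusted p = 0.00839), and B4 alone of the 17-71 libraries reached the CLBL-1 range. The difference was -0.53 without B4 and -0.24 without B6 (limma adjusted p = 0.04). The peak of B4 was 672 bp wide there and those of the other 17-71 libraries 1874 to 2141 bp. In CLBL-1 the peaks were 848, 1120, 1077, 1917 and 853 bp wide from C2 to C6, so width moved with the line difference at this region, and its part in the fold was not tested. The downstream region, chr9:34342260-34344885, had a peak in B1, B2 and B3, at 2.41 to 2.48, in neither PR220 library of 17-71 and in C5 of CLBL-1. At a −log10 p of at least 10 it had a peak in no library.

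ALYREF, an adaptor that hands mRNA to the export machinery, held a region inside the gene, chr9:399701-401362. All 5 libraries of 17-71 had a peak there at a fold of 5.55 to 7.70, and in CLBL-1 C4 and C5 had one at 2.44 and 2.26. EIF4A3, the helicase core of the exon junction complex, had the opposite pattern of presence at chr9:1581662-1583972, over its start. All 5 CLBL-1 libraries had a peak there at a fold of 2.83 to 3.58, and B1 and B3 of 17-71 at 3.60 and 3.29. At a −log10 p of at least 10, C4 alone kept its peak. Inside MAP3K14, the kinase that starts the noncanonical NF-κB pathway, chr9:18256857-18257732 had a peak in the 3 controls of 17-71 alone, at a fold of 2.15 to 2.30. It had no peak in any library at a −log10 p of at least 10. None of these 3 regions had a fold in every library, so none was tested.

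The U2 and U1 small nuclear RNA genes, both multi-copy, lay in 5 and 3 of the annotated regions. Read pairs from near-identical copies could be placed on any of them by the aligner, so values of single copies are uncertain. U2, which pairs with the branch point of introns, had 5 annotated copies within 51.0 kb, from chr9:19846481-19897510, among 8 merged regions. They are numbered in order along the chromosome. The fold of copy 1 was 3.17, 2.45 and 2.66 in the 17-71 controls and 2.96 and 2.97 with PR220, and 4.66, 4.85, 4.21, 4.71 and 4.83 from C2 to C6. Copy 5, chr9:19894996-19897510, had 2.17 to 2.75 in 17-71 and 4.14 to 5.74 in CLBL-1. The lines did not overlap at either copy. The peaks of copy 1 were 1517 to 2933 bp wide in 17-71 and 1086 to 1785 bp in CLBL-1, while those of copy 5 were 709 to 1094 bp in 17-71 and wider in CLBL-1, at 1196 to 2426 bp.

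U2 copies 1, 4 and 5 were higher in CLBL-1 by limma, with log2 differences of -0.54 ± 0.0740, -0.69 ± 0.0791 and -0.86 ± 0.0875 (SE) and adjusted p of 7.51e-05, 1.98e-05 and 8.63e-06. Copy 3 differed by -0.15 (limma adjusted p = 0.0846), but it passed in 3 alternatives, by -0.20 with quantile normalization, by -0.32 without centring and by -0.16 at a −log10 p of at least 10 (limma adjusted p = 0.0217, 0.0165 and 0.0473). Copy 2, without a peak in B4, was not tested. Between copies 2 and 3 lies chr9:19869933-19871782, the region that was most in favour of 17-71 and to which the annotation at hand gives no gene. No U2 copy passed with PR220 in either line.

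U1, which pairs with the start of introns, had 3 annotated copies within 14.2 kb, from chr9:33264926-33279163. Copies 1 and 2, chr9:33264926-33266630 and chr9:33271242-33272475, had a peak in every CLBL-1 library, at a fold of 5.12 to 5.88 and 5.56 to 6.37, and in no 17-71 library. Copy 3, chr9:33276851-33279163, had a peak in all 10, at 4.15 to 4.92 in 17-71 and 4.39 to 4.88 in CLBL-1, and did not pass between the lines (log2 difference 0.08, limma adjusted p = 0.39). Beside them, regions of 2 copies of the U3 small nucleolar RNA, which acts in the processing of ribosomal RNA, had a peak in all libraries, at 5.04 to 6.14 and 3.66 to 4.42 in 17-71 and 4.83 to 5.99 and 4.05 to 5.05 in CLBL-1. U3 copy 1 was higher in 17-71 by 0.21 ± 0.0659 (log2, SE, limma adjusted p = 0.0231), a call that was lost without centring, without C2 and without C4. U3 copy 2 differed by -0.13 and did not pass (limma adjusted p = 0.154). Without centring it passed as higher in CLBL-1, by -0.29 (limma adjusted p = 0.0266).

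Other annotated regions split by line as well. Inside CDK5RAP3, chr9:24281844-24282929 had a peak in all 5 CLBL-1 libraries, at a fold of 5.94 to 7.34, and in none of 17-71. Inside DUSP3, which encodes a dual-specificity phosphatase, chr9:19521271-19523151 had a peak in all 5 of 17-71, at 4.00 to 4.48, and in C5 and C6 at 2.60 and 3.36. Upstream of AANAT, an enzyme of melatonin synthesis, chr9:4416611-4417987 had a fold of 2.95 to 4.12 in 17-71 and 5.04 to 5.72 in CLBL-1, a log2 difference of -0.40 ± 0.0770 (SE, limma adjusted p = 0.00101). At the starts of MRPS7 and MRPL38, which encode proteins of the mitochondrial ribosome, the folds of the lines overlapped, at 3.73 to 4.98 and 4.76 to 5.63 for MRPS7 and at 4.61 to 6.38 and 4.41 to 6.70 for MRPL38. Of the 15 annotated regions that could be tested, 2 were higher in 17-71 and 5 higher in CLBL-1, where 21.3% and 19.1% of the 9179 were. With PR220, 0 passed in either line by limma. Of the 9179, 0.479% rose and 0.163% fell in 17-71, and 0% did either in CLBL-1. Without centring, where 7.02% and 31.6% of the 9179 passed, the 2 higher in 17-71, CCR7 and U3 copy 1, no longer did. The 5 higher in CLBL-1 still passed. U2 copy 3, U3 copy 2 and chr9:42914396-42916158, which holds a small nucleolar RNA gene, then also passed as higher in CLBL-1, by -0.32, -0.29 and -0.27.

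**Figure D5:**
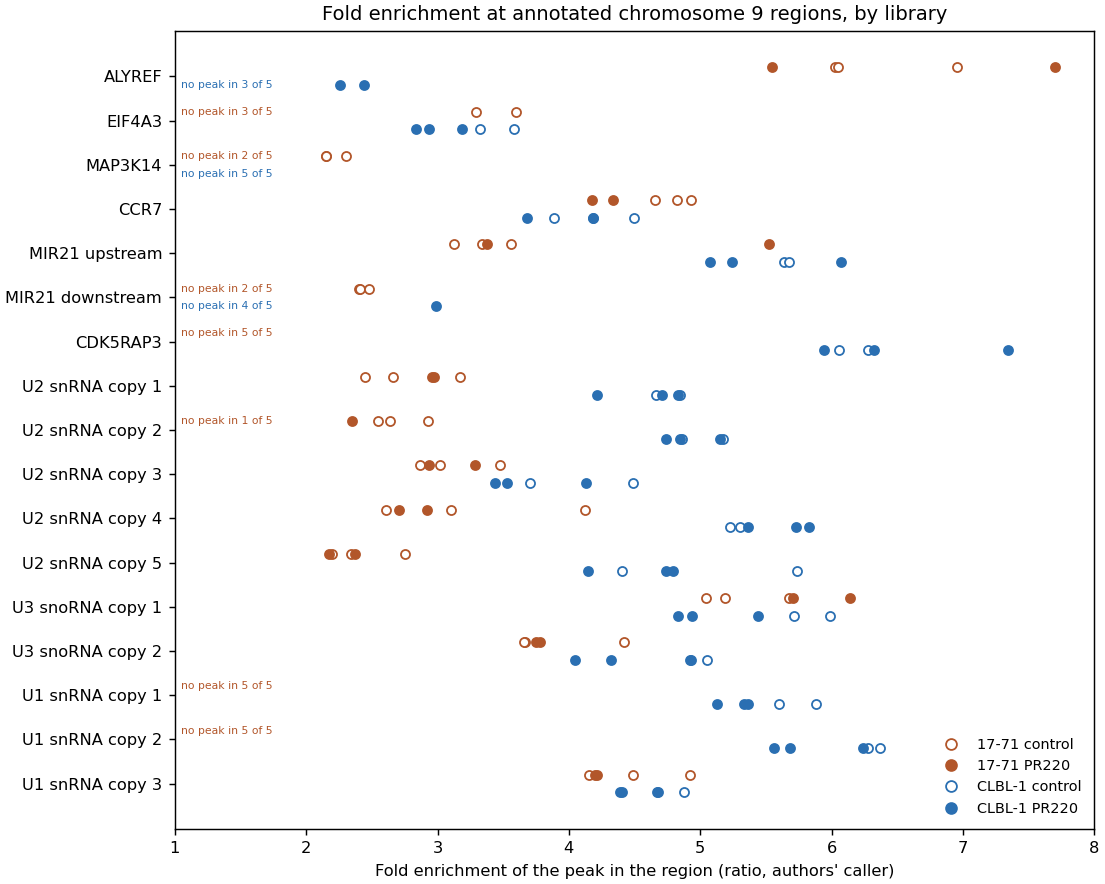
Each point is the fold enrichment (ratio) of 1 library at an annotated chromosome 9 region, with 17-71 in brown above CLBL-1 in blue, open for control and filled for PR220; libraries without a peak are counted at the left. U2 copies 1, 2, 4 and 5 lie further right in CLBL-1, as does the region upstream of MIR21 apart from B4, ALYREF lies further right in 17-71, and U1 copies 1 and 2 have points of CLBL-1 alone.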

How the data were processed

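ATAC-seq libraries of 17-71 and CLBL-1 were analysed from the authors' peak lists, 1 per library. Per the submitters' processing notes and the study's methods, read pairs were aligned by the authors with Bowtie2 2.2.4 against CanFam3.1, with 1 placement kept per read, and the authors called broad peaks with MACS2 (paired-end mode, human genome size, −log10 p of at least 5) without pooling. For MACS2 the version is not given in the sources at hand. The deposited fold enrichment is a ratio over local background, and the deposited −log10 p comes from the same caller. A score column and the −log10 q column were not used. The study's table of regions was used for gene names alone. Its count columns and its fold changes and p-values, which hold the study's own findings, were not used.

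Touching or overlapping peaks of all libraries were merged. A peak was assigned to a 1 Mb window by its midpoint, and windows with a mean of at least 2 peaks per library were tested. For a region, the largest fold of a library's peaks was taken. The fits used limma 3.58.1 (R 4.3.3) with 4 group means, a trend in the spread and Benjamini-Hochberg adjustment over all chromosomes, at a threshold of 0.05. Group means of shares, numbers, widths and folds were compared by exact two-sided permutation. Python 3.11.15, pandas 2.3.3 and scipy 1.17.1 were used. On simulated data the fit of windows between lines recovered 55% of 2-fold and 90% of 4-fold changes over 2083 windows. The fit of fold with PR220 in 17-71 recovered 54% of 1.41-fold and 96% of 2-fold changes over 9179 regions. The extra spread of the simulated windows was a set value and was not estimated from these libraries. Windows with PR220, and PR220 in CLBL-1, were not simulated, so these rates do not apply to them.

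The chromosome, the gene list and the tests were chosen with earlier results of these data known. Regions named were, for each pattern of presence, the 3 (5 for all libraries) whose weakest peak had the largest −log10 p, the 5 widest, and in each contrast the 5 called regions of smallest p, or the 3 of smallest p where none passed. Windows named were the 5 with most and 5 with fewest regions and up to 3 called in each direction. Alternatives were a −log10 p of at least 10, lists of 20000 peaks, shares of base pairs, control or PR220 libraries alone, 2 peaks added, all windows, windows shifted by 0.5 Mb, quantile normalization, no centring, a width-weighted mean fold, merging up to 500 bp apart, leaving out each library and, between the lines, the title number as a block.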

Additional observations from a re-analysis of the deposited data

Results flagged for a closer look

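The effect of PR220 on the number of chromosome 9 peaks stood out by its difference between the lines, which did not pass after adjustment. It was -467 peaks in 17-71 and 197 in CLBL-1, a difference of -664 (exact two-sided permutation of the treatment within each line, 100 arrangements, p = 0.03, and 0.0933 after Benjamini-Hochberg adjustment over 4 measures). The interaction passed by limma in 0 windows and 0 regions of the chromosome, and in 0 of 2083 windows and 4 of 9179 regions of the genome. Every PR220 library of 17-71 had fewer peaks than every control and every PR220 library of CLBL-1 had more. The size of the effect in 17-71 depends on B1, which had 1760 peaks, against 1140 in B2 and 1189 in B3. The same difference for the share of peaks was -0.499 percentage points (exact permutation p = 0.07), for median width -130 bp (exact permutation p = 0.07) and for relative fold -0.0188 (exact permutation p = 0.3). Much of the width effect in 17-71 came from B4: it was -97.8 bp with all libraries and -25.8 bp without B4. The mean length of the whole list changed by -11365 peaks in 17-71 and by 2215 in CLBL-1. The part of list length in the difference was not tested, and line and collection day cannot be told apart.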

How the results depend on the processing

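The line difference in share, 17-71 minus CLBL-1, kept its direction throughout and was -0.950 points in control and -1.45 in PR220 libraries alone. Windows called with PR220 in 17-71 numbered 9 at a −log10 p of at least 10 (2 higher and 7 lower), 1 when all windows were tested, 1 in lists of 20000 peaks, 0 when scaled to the chromosome's own peaks, and 0 to 4 on leaving out 1 library. Regions called by fold between the lines fell to 68 at the stricter −log10 p, where 203 could be tested. With PR220 in 17-71, fold calls numbered 2 with the weighted mean, 0 without centring and 0 to 33 without 1 library, with 33 reached without B6. At the stricter −log10 p, presence in all libraries held for 203 regions (14.7%, against 12.8% over the genome). Presence in all of 17-71 and none of CLBL-1 held for 44 (3.18%, against 6.84%), and the reverse for 103 (7.45%, against 7.56%). At this setting 31 were gained in CLBL-1 (2.24%, against 1.19%), 0 were gained in 17-71 and 0 lost in CLBL-1. The genome's shares beside these 0 counts, and the number lost in 17-71 at this setting, are not given here. In lists of 20000 peaks, 32 were lost (1.91%, against 1.74%) and 12 gained (0.716%, against 1.59%) in 17-71 and 27 gained in CLBL-1 (1.61%, against 0.665%). Without 1 library, 127 to 298 were lost (5.99% to 12.7%, against 6.91% to 13.96%) and 3 to 16 gained in 17-71 (0.128% to 0.684%, against 0.203% to 1.78%), and 6 to 31 were lost (0.262% to 1.33%, against 0.391% to 1.52%) and 59 to 130 gained in CLBL-1 (2.58% to 5.57%, against 1.41% to 2.63%), where fewer libraries must agree. The window from 35 to 36 Mb did not pass between lines at the stricter −log10 p (0.25). The region of U1 copy 3 reversed to -0.088 without centring. The cause of the other changes was not tested. Total counts of windows and regions between lines otherwise stayed within 1.5 times, but their split by direction did not: windows higher in 17-71 and in CLBL-1 went from 6 and 40 to 17 and 16 when scaled to the chromosome's own peaks, and regions from 90 and 100 to 35 and 159 without centring. No other named result reversed. Within a line, control and PR220 libraries share no title number and were not paired. Between the lines, B2 and C2, B3 and C3, B4 and C4, and B6 and C6 share one. Their deviations from the group means correlated at -0.127 to 0.00519 over windows and -0.0926 to 0.0665 over regions. What the shared number stands for is unknown, and deviations within groups of 2 or 3 libraries cannot settle it. With the title number as a replicate block, chosen after seeing the data, 41 windows and 171 regions were called between the lines, against 46 and 190. The shares over all chromosomes with this block are not given here, so these counts describe the calls alone. The lists carry no depth, so a missing peak sets no upper limit, and 2 or 3 libraries per group allow no exact p below 0.1 within a line.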
